A study of Mus musculus with 47 samples.

Results

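Methionine restriction was compared between inguinal white adipose tissue (IWAT) and liver by asking, gene by gene, whether the difference between diets in fat was unlike that in liver. The comparison used 24 of the 47 libraries, all those of IWAT and of liver, with the deposited tag counts of both tissues joined by gene symbol. The mice were 12 male C57BL/6J animals, an inbred strain, and each gave 1 IWAT library and 1 liver library. They fell into 4 groups of 6 libraries: IWAT of methionine-restricted (MR) mice, IWAT of control mice, liver of MR mice and liver of control mice. The MR mice ate a methionine-restricted diet and the control mice a control diet for 11 weeks, starting at 5 weeks of age. All mice were kept at 23 C and were fasted for 5 h before dissection. How much methionine either diet held is not stated in the labels.

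Methionine is an essential amino acid, and liver is the main site of its breakdown. When amino acids run short, uncharged transfer RNA activates the kinase GCN2, and the transcription factor ATF4 then raises a programme known as the integrated stress response, with genes for amino acid synthesis such as Asns and Psat1. Inguinal fat is a white depot that stores triglyceride and can also acquire beige adipocytes, which express Ucp1 and oxidise fatty acids. Liver and fat share the enzymes of fatty acid synthesis.

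Each deposited value was a number of short tags read near the 3' end of a gene's transcripts, and library totals were 4887004 to 7094761 tags in IWAT and 7710740 to 12130444 in liver. A count of 0 allows up to 3 tags, which is 0.247 to 0.614 counts per 1000000 tags (CPM), counting error only. Adipocyte markers summed to between 38381 and 105594 CPM in IWAT libraries, against 3301 to 5495 CPM in liver libraries. Hepatocyte markers summed to 1330 to 21189 CPM in IWAT libraries and to 203806 to 326664 CPM in liver libraries. The tissues differed in spread: the biological coefficient of variation was 0.712 in IWAT and 0.240 in liver. In IWAT, the libraries of control mice CON3106 and CON3115 and of MR mouse MR3116 stood apart, with median Spearman correlations of 0.608 to 0.702 with the other IWAT libraries, where the remaining ones reached 0.851 to 0.915. Lymphocyte markers were at 9197 CPM in the IWAT of control mouse CON3107, against 393 to 4303 CPM in IWAT of MR mice and 683 to 1768 CPM in the other IWAT libraries of control mice. In such bulk samples, fewer cells of a type and less RNA per cell cannot be told apart.

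Few genes had a diet effect that differed between fat and liver past the test. The term of interest was the log2 fold change of MR over control in IWAT minus the same in liver, so that a positive term means a higher diet effect in IWAT. Of 12308 genes tested with the quasi-likelihood test of edgeR, 21 (0.171%) passed an adjusted p of 0.05, of which 6 (0.0487%) had a positive and 15 (0.122%) a negative term. The positive ones were Acsl5 and Gyk, enzymes that activate fatty acids and glycerol, with Ppif, Egln3, Orm3 and Fam131c. The negative ones included the amino acid and folate enzymes Asns, Psat1 and Aldh1l2, which rose in liver, and the lipopolysaccharide-binding protein gene Lbp, which fell in IWAT. Of the 21 genes, 12 passed the test of the diet effect in IWAT but not in liver, 7 in liver but not in IWAT, 1 in both and 1 in neither.

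The estimates of the 2 tissues had opposite signs in 20 of the 21 called genes, 6 with IWAT above 0 and 14 with IWAT below 0. Among the 8965 genes measured in both tissues (defined below), 4233 (47.2%) had opposite signs. Choosing genes by the difference of 2 estimates favours opposite signs, so the count of 20 is a description. In the joint fit with its shared dispersion, 406 genes (3.3%) passed in IWAT, 163 (1.32%) higher and 243 (1.97%) lower, and 11 (0.0894%) were higher and 9 (0.0731%) lower in liver. With each tissue fitted on its own, 1 gene (0.00813%) rose and 2 (0.0163%) fell in IWAT, and 109 (0.888%) rose and 121 (0.986%) fell in liver. At an unadjusted p under 0.05, those separate fits held 453 higher (3.68%) and 566 lower genes (4.6%) in IWAT and 783 higher (6.38%) and 884 lower genes (7.2%) in liver. Of the 13 called genes with a diet effect in IWAT by the joint fit, Lbp and Acsl5 also passed in IWAT fitted alone, and the adjusted p of the other 11 there was 0.059 (Gyk) to 0.368 (Baiap2). A total of 1033 genes (8.39%) had an unadjusted p under 0.05 for the term. Leaving out 1 library at a time gave 13 to 106 calls for the term, and limma voom with weights per tissue gave 19, of which 10 were among the 21. With the animal added as a replicate block, 2 were left, Lbp and Orm3. The split between positive and negative calls depended on the scaling: it was 20 to 15 with upper-quartile factors, 13 to 15 with RLE factors and 18 to 18 with TMM factors set within each tissue. Across the 8965 genes measured in both tissues (a mean of at least 20 counts in the higher diet group of each), the Spearman correlation of the fold changes was 0.081 and the Pearson correlation 0.041, a description over genes that share libraries.

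**Figure D1:**
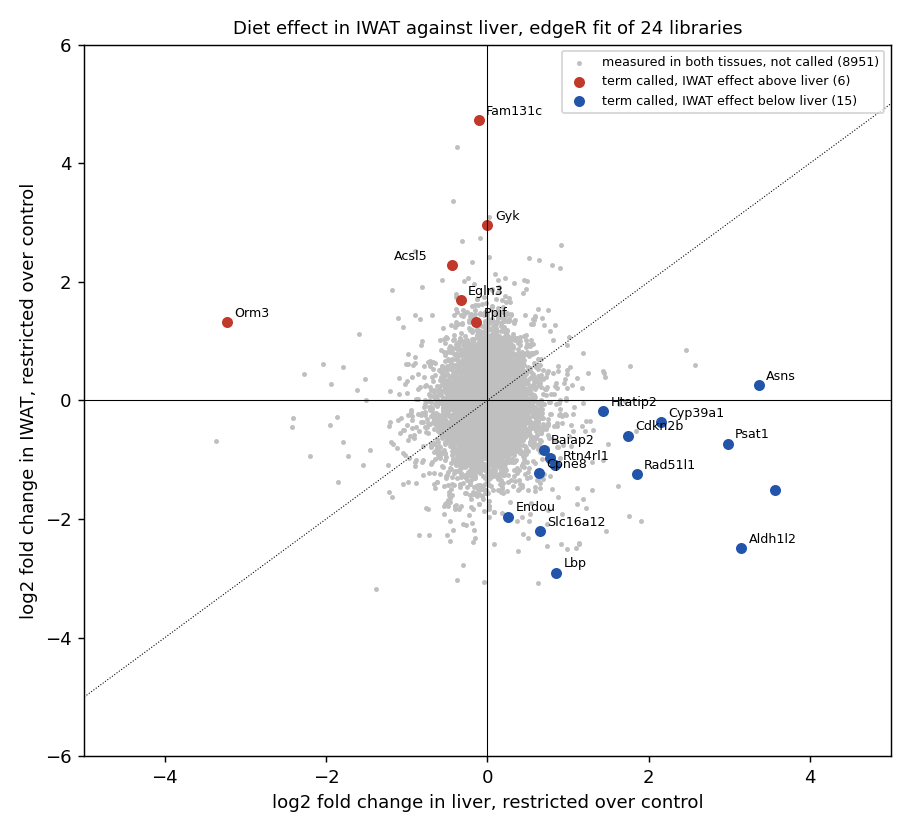
Log2 fold change of MR over control in IWAT (vertical axis) and in liver (horizontal axis), edgeR fit of 24 libraries. Grey points are the 8951 genes measured in both tissues and not called, red points the 6 genes with a positive and blue points the 15 with a negative tissue-by-diet term; 2 predicted genes have no name printed, and equal effects would lie on the dotted line.

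Opposite movement was first defined strictly, as a gene that passed 3 tests, for the term, for IWAT and for liver, with opposite signs. By this definition 1 gene (0.00812%) was lower in IWAT and higher in liver, Aldh1l2, and 0 genes (0.0%) were higher in IWAT and lower in liver. Aldh1l2, at chr10:83487447-83534146 (GRCm38.p6), encodes a mitochondrial enzyme of folate-dependent one-carbon metabolism. In IWAT it ranged from 0.131 to 1.04 CPM (median 0.251) in MR mice, against 0.439 to 7.42 CPM (median 1.16) in control mice. In liver it ranged from 2.20 to 4.90 CPM (median 3.38) in MR mice, against 0.123 to 0.591 CPM (median 0.420) in control mice. The diets overlapped in IWAT and did not overlap in liver. These were few tags, 1 to 5 per library in IWAT of MR mice, 5 to 40 in IWAT of control mice, 18 to 49 in liver of MR mice and 1 to 5 in liver of control mice, so Aldh1l2 did not count as measured in both tissues. Its log2 fold change was -2.49 ± 0.61 (SE) in IWAT (adjusted p = 0.0239) and 3.15 ± 0.59 in liver (adjusted p = 0.0170), and the term was -5.64 ± 0.85 (adjusted p = 0.00265). With the tissues fitted apart, the liver effect passed (adjusted p = 0.00012) and the IWAT effect did not (adjusted p = 0.284). The term had an adjusted p of 0.0703 with the animal as a replicate block. The highest IWAT values of Aldh1l2 in control mice came from CON3106 (7.42 CPM, 40 tags) and CON3115 (2.69 CPM, 20 tags). Both are among the 3 IWAT libraries that stand apart. Without those 3 libraries the term passed (-4.65, adjusted p = 0.000458), but Aldh1l2 did not pass all 3 tests. In the edgeR fit of the 24 libraries no gene was higher in IWAT and lower in liver, whereas DESeq2 called 2 such genes, Orm3 and Trim2, and Orm3 alone was called by limma voom and by the edgeR fit of all 47 libraries.

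Lbp was the gene with the smallest p for the term. Its product, secreted mainly by liver, binds bacterial lipopolysaccharide and passes it to CD14. In IWAT, Lbp ranged from 18.3 to 50.2 CPM (median 35.4) in MR mice, against 133 to 439 CPM (median 262) in control mice, with no overlap. In liver it ranged from 124 to 225 CPM (median 198) in MR mice, against 73.8 to 164 CPM (median 95.3) in control mice, where MR and control libraries overlapped. The term was -3.77 ± 0.45 (adjusted p = 0.000196), with -2.91 ± 0.33 in IWAT (adjusted p = 8.1e-05) and 0.86 ± 0.31 in liver (adjusted p = 0.922 in the joint fit). Fitted by tissue, Lbp passed in both directions, -2.84 ± 0.39 in IWAT (adjusted p = 0.0284) and 0.86 ± 0.19 in liver (adjusted p = 0.0305), and it was the one gene that did so. Its term also passed with the animal as a replicate block (adjusted p = 0.0125) and without the 3 IWAT libraries that stand apart (-3.31, adjusted p = 0.000448). Lbp lies at chr2:158306493-158332852 (GRCm38.p6).

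Asns and Psat1 rose in liver and did not pass the test in IWAT. Asns, asparagine synthetase, is a textbook target of ATF4. In liver, Asns ranged from 208 to 315 CPM (median 274) in MR mice, against 5.91 to 49.1 CPM (median 19.9) in control mice. In IWAT it ranged from 88.5 to 346 CPM (median 144) in MR mice and from 66.7 to 243 CPM (median 124) in control mice. The liver groups were far apart and the IWAT groups overlapped over most of their range. The log2 fold change of Asns was 0.26 ± 0.41 in IWAT (adjusted p = 0.884) and 3.37 ± 0.45 in liver (adjusted p = 0.000701), with a term of -3.11 ± 0.60 (adjusted p = 0.0225). Leaving out any 1 of 7 libraries took the Asns term past 0.05, to an adjusted p of at most 0.0757, and it was 0.177 with the animal as a replicate block and 0.0761 with limma voom weights per tissue.

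Psat1, phosphoserine aminotransferase, makes serine from glycolytic carbon. Its liver values were 15.8 to 43.6 CPM (median 23.4) in MR mice, against 1.35 to 7.33 CPM (median 2.59) in control mice, with no overlap. In IWAT, Psat1 was at 24.4 to 62.6 CPM (median 48.8) in MR mice and at 41.9 to 122 CPM (median 62.9) in control mice, with overlap. The term was -3.72 ± 0.56 (adjusted p = 0.00265), from -0.73 ± 0.38 in IWAT (adjusted p = 0.373) and 2.98 ± 0.42 in liver (adjusted p = 0.000776). It held an adjusted p of 0.0533 with the replicate block. In control mice, every IWAT library had more CPM of Psat1 and of Asns than any liver library.

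ATF4 binds composite elements that contain TGATGNAA, and the stretch before the start of Asns is printed because it holds that motif. The 120 bases below end at the base before the start of Asns (RefSeq, GRCm38.p6, chr6:7693210-7693329, minus strand), with the motif match in capitals, which begins 23 bases before the start.
Asns: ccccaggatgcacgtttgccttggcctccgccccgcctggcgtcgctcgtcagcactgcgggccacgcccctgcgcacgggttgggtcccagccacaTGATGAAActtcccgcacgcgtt
The same letters, on either strand, stood within 250 bases before the start in 1134 of 32851 RefSeq promoters (3.45%). Of the 21 genes called for the term, 12 had a promoter entry and 1, Asns, held the motif. Both promoter entries of Psat1 were without it, which says only that these letters are not in those windows.

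Among genes measured in both tissues, Acsl5 and Gyk had the positive terms with the smallest p, and both rose in IWAT and did not pass in liver. Acsl5, at chr19:55251861-55296628 (GRCm38.p6), encodes a long-chain acyl-CoA synthetase that activates fatty acids at mitochondria and endoplasmic reticulum. In IWAT it ranged from 449 to 1155 CPM (median 843) in MR mice, against 117 to 273 CPM (median 165) in control mice, without overlap. In liver Acsl5 ranged from 424 to 781 CPM (median 606) in MR mice and from 522 to 1225 CPM (median 717) in control mice, with overlap. The IWAT effect of 2.28 ± 0.31 (adjusted p = 0.000402) and the liver effect of -0.44 ± 0.30 (adjusted p = 1.0) gave a term of 2.72 ± 0.43 (adjusted p = 0.0037). Acsl5 was also the 1 gene that rose in IWAT fitted on its own (adjusted p = 0.0284).

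Gyk, the symbol in the counts for glycerol kinase Gk on chromosome X, makes glycerol 3-phosphate from glycerol and is low in white fat. Its IWAT values were 86.5 to 468 CPM (median 189) in MR mice, against 9.78 to 42.2 CPM (median 26.4) in control mice, without overlap. In liver, where glycerol kinase is a standing enzyme, they were 142 to 239 CPM (median 196) in MR mice and 166 to 217 CPM (median 200) in control mice, almost the same range. The term was 2.97 ± 0.50 (adjusted p = 0.00626), with 2.96 ± 0.37 in IWAT (adjusted p = 0.000188) and -0.01 ± 0.35 in liver (adjusted p = 1.0).

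Ppif, cyclophilin D of the mitochondrial matrix, and Egln3, a prolyl hydroxylase of hypoxia-inducible factor, followed with smaller terms. In IWAT, Ppif was at 53.7 to 77.8 CPM (median 64.0) in MR mice, against 17.1 to 38.8 CPM (median 22.7) in control mice, and the groups did not overlap. Its liver values, 56.0 to 61.7 CPM (median 59.8) in MR mice and 55.7 to 76.5 CPM (median 63.1) in control mice, overlapped. The Ppif term was 1.46 ± 0.28 (adjusted p = 0.0207), and 0.0508 without the IWAT library of MR mouse MR3113. Egln3 had 15.4 to 52.8 CPM (median 41.5) in IWAT of MR mice against 5.04 to 17.8 CPM (median 12.4) in IWAT of control mice. Its liver values were 28.8 to 48.0 CPM (median 39.4) in liver of MR mice against 38.2 to 63.9 CPM (median 49.6) in liver of control mice. The groups overlapped in both tissues, and the Egln3 term was 2.03 ± 0.40 (adjusted p = 0.0316), lost in 8 of 24 fits that left out 1 library each, to an adjusted p of at most 0.0698. With the animal as a replicate block the adjusted p was 0.0703 for Acsl5, Gyk and Ppif and 0.118 for Egln3. With limma voom weights per tissue all 4 passed, with adjusted p of 0.0417 for Acsl5, 0.00136 for Gyk, 0.0212 for Ppif and 0.0459 for Egln3.

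Orm3 and Fam131c, named after their values were seen, also had positive terms but too few tags to count as measured in both tissues. Orm3 belongs to the orosomucoid acute phase genes, whose copies are similar enough that tags may be split between them, so its values are uncertain. It ranged from 11.0 to 40.3 CPM (median 25.0) in IWAT of MR mice and 4.45 to 24.2 CPM (median 7.41) in IWAT of control mice, with overlap. In liver it had 1 to 4 tags per library in MR mice and 10 to 31 in control mice, with no overlap. The term was 4.54 ± 0.65 (adjusted p = 0.00245), and it passed with the replicate block as well (adjusted p = 0.0125). The liver effect of -3.22 ± 0.52 passed (adjusted p = 0.00396) and the IWAT effect of 1.32 ± 0.40 did not (adjusted p = 0.0701). Fam131c had 0 to 15 tags per library in IWAT of MR mice against 0 or 1 in IWAT of control mice, so the size of its fitted term depends on the prior count. Its adjusted p was 0.0109, and 0.157 with the replicate block.

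**Figure D2:**
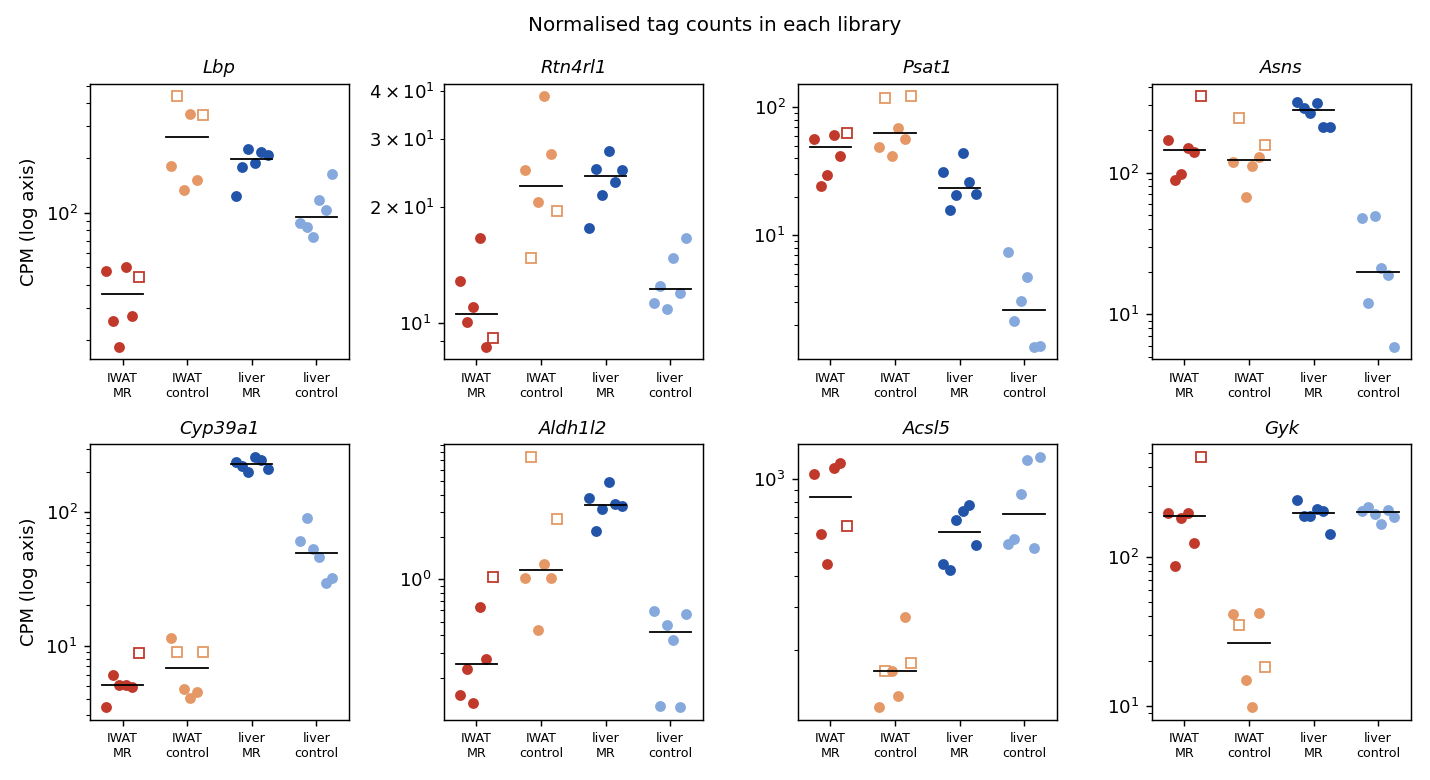
CPM on a log axis in each of the 24 libraries for 8 genes called for the term, by group, with a line at the group median. Open squares mark the 3 IWAT libraries that stand apart; Lbp, Acsl5 and Gyk separate the diets in IWAT, while Psat1, Asns, Cyp39a1, Rtn4rl1 and Aldh1l2 separate them in liver.

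Cyp39a1, an oxysterol 7-alpha-hydroxylase of bile acid synthesis, rose in liver. There it ranged from 199 to 260 CPM (median 232) in MR mice, against 29.5 to 89.8 CPM (median 49.4) in control mice, with no overlap. In IWAT it was low in all libraries, 3.45 to 8.73 CPM (median 5.07) in MR mice and 4.03 to 11.5 CPM (median 6.82) in control mice. The liver effect was 2.15 ± 0.29 (adjusted p = 0.000701), the IWAT effect -0.36 ± 0.29 (adjusted p = 0.662) and the term -2.51 ± 0.41 (adjusted p = 0.00539). The term had an adjusted p of 0.0524 with the replicate block and 0.157 with limma voom weights per tissue.

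Rtn4rl1, a homologue of the Nogo receptor, had estimates of similar size and opposite sign. In IWAT it ranged from 8.71 to 16.6 CPM (median 10.6) in MR mice, against 14.8 to 38.8 CPM (median 22.8) in control mice, with a small overlap. In liver it ranged from 17.7 to 28.0 CPM (median 24.1) in MR mice, against 10.9 to 16.6 CPM (median 12.3) in control mice, without overlap. Control mice thus had more Rtn4rl1 tags in IWAT than in liver by median, and MR mice fewer. The term was -1.94 ± 0.31 (adjusted p = 0.00407), with -1.09 ± 0.22 in IWAT (adjusted p = 0.00761) and 0.84 ± 0.22 in liver (adjusted p = 0.234 in the joint fit, and 0.00472 in liver fitted on its own). It passed all 3 tests of opposite movement without the 3 IWAT libraries that stand apart, and the term had an adjusted p of 0.0703 with the replicate block.

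Slc16a12, a monocarboxylate transporter family member, and Cpne8, a copine, fell in IWAT in the joint fit (adjusted p = 0.00356 and 0.00758). Slc16a12 had 0.901 to 3.16 CPM (median 1.84) in IWAT of MR mice against 1.84 to 17.3 CPM (median 7.35) in IWAT of control mice. In liver Slc16a12 had 23.9 to 29.2 CPM (median 27.3) in liver of MR mice against 8.41 to 22.5 CPM (median 17.7) in liver of control mice. Its groups overlapped in IWAT and not in liver, and the term was -2.85 ± 0.53 (adjusted p = 0.0175). Cpne8 had 10.1 to 19.7 CPM (median 12.7) in IWAT of MR mice against 19.4 to 54.5 CPM (median 29.2) in IWAT of control mice. In liver Cpne8 had 5.54 to 9.52 CPM (median 7.01) in liver of MR mice against 3.81 to 5.64 CPM (median 4.47) in liver of control mice. Its groups overlapped slightly in both tissues, and the term was -1.87 ± 0.35 (adjusted p = 0.0175), lost in 7 fits without 1 library, to an adjusted p of at most 0.0737. With the replicate block the adjusted p was 0.264 for Slc16a12 and 0.199 for Cpne8. In liver neither passed, with adjusted p of 0.0785 for Slc16a12 and 0.0559 for Cpne8 in the fit of that tissue alone. With IWAT fitted alone neither passed there, with adjusted p of 0.165 for Slc16a12 and 0.193 for Cpne8.

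The remaining named negative terms, chosen after their values were seen, were smaller or rested on few tags. Htatip2, an oxidoreductase, had liver values of 119 to 192 CPM (median 136) in MR mice against 38.3 to 77.2 CPM (median 51.2) in control mice, and a term of -1.62 ± 0.32 (adjusted p = 0.0316). Its IWAT values overlapped, at 39.3 to 92.6 CPM in MR mice and 51.0 to 95.0 CPM in control mice. Baiap2, an actin regulator, had a term of -1.53 ± 0.32 (adjusted p = 0.0396). In the joint fit it fell in IWAT by 0.83 on the log2 scale (adjusted p = 0.0398) and was 0.70 ± 0.22 in liver (adjusted p = 0.612). With each tissue fitted on its own by edgeR, the liver effect of Baiap2 passed (adjusted p = 0.0455) and the IWAT effect did not (adjusted p = 0.368). Endou, an endoribonuclease, fell in IWAT to 1.25 to 3.92 CPM in MR mice, against 4.92 to 10.5 CPM in control mice, with a term of -2.22 ± 0.46 (adjusted p = 0.0396). Rad51l1, the counts' symbol for the recombination gene Rad51b, rose in liver to 20 to 81 tags per library in MR mice, against 7 to 13 in control mice, with a term of -3.10 ± 0.52 (adjusted p = 0.00625). Cdkn2b, a cell cycle inhibitor, had a term of -2.34 ± 0.49 (adjusted p = 0.0455), but no more than 9 tags in any liver library. With the replicate block the adjusted p was 0.0703 for Htatip2, 0.25 for Baiap2, 0.157 for Endou, 0.118 for Rad51l1 and 0.17 for Cdkn2b. Leaving out 1 library at a time, the term was lost in 14 fits for Htatip2, 17 for Baiap2, 17 for Endou and 18 for Cdkn2b, with adjusted p up to 0.112, and in none for Rad51l1.

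A looser definition asked for an unadjusted p under 0.05 in both tissues, each fitted on its own. Of the 8965 measured genes, 133 (1.48%) met it, and 60 (0.669%) of them moved in opposite directions by their estimates, 36 (0.402%) with IWAT higher and liver lower and 24 (0.268%) with IWAT lower and liver higher. A further 26 were higher and 47 lower in both tissues. Genes with opposite signs were thus outnumbered by the 73 with the same sign, and 7 of the 60 were called for the term.

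Single genes among the 36 with IWAT higher and liver lower are described here, chosen after their values were seen and not a sample of the 36. Got1, aspartate aminotransferase, had 44.3 to 164 CPM (median 92.9) in IWAT of MR mice against 11.1 to 52.3 CPM (median 37.3) in IWAT of control mice. In liver Got1 had 352 to 776 CPM (median 527) in liver of MR mice against 666 to 1037 CPM (median 869) in liver of control mice. Its own-fit effects were 1.51 ± 0.39 in IWAT (unadjusted p = 0.00185) and -0.69 ± 0.20 in liver (unadjusted p = 0.00388). Gpam, the first acyltransferase of triglyceride synthesis, was at 1.52 ± 0.40 in IWAT and -0.42 ± 0.17 in liver. Slc25a42, a mitochondrial coenzyme A carrier, was at 1.86 ± 0.45 in IWAT and -0.39 ± 0.16 in liver. Acly, which makes cytosolic acetyl-CoA for lipogenesis, was at 0.73 ± 0.33 in IWAT and -0.74 ± 0.17 in liver. The SE of each of these 4 genes was larger in IWAT than in liver. Acot11, a thioesterase of brown fat, was at 2.60 ± 0.84 in IWAT and -0.90 ± 0.30 in liver. Ppara, the fatty acid receptor, was at 1.35 ± 0.50 in IWAT and -0.45 ± 0.12 in liver. Sdha, of respiratory complex II, was at 0.95 ± 0.38 in IWAT and -0.38 ± 0.12 in liver. The term of Got1 just missed the threshold (adjusted p = 0.0547), as did that of Rap1gap, a regulator of Rap1 (adjusted p = 0.0547), and the others stood between 0.061 for Slc25a42 and 0.274 for Sdha. Egln3, described above and called for the term (adjusted p = 0.0316), was also among the 36. Its own-fit effects were 1.76 ± 0.37 in IWAT (unadjusted p = 0.000417) and -0.33 ± 0.14 in liver (unadjusted p = 0.0308). The 24 genes with the opposite pattern included Lbp, Rtn4rl1, Slc16a12, Cpne8, Baiap2 and Vasn, a binder of transforming growth factor beta (term adjusted p = 0.0501).

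**Figure D3:**
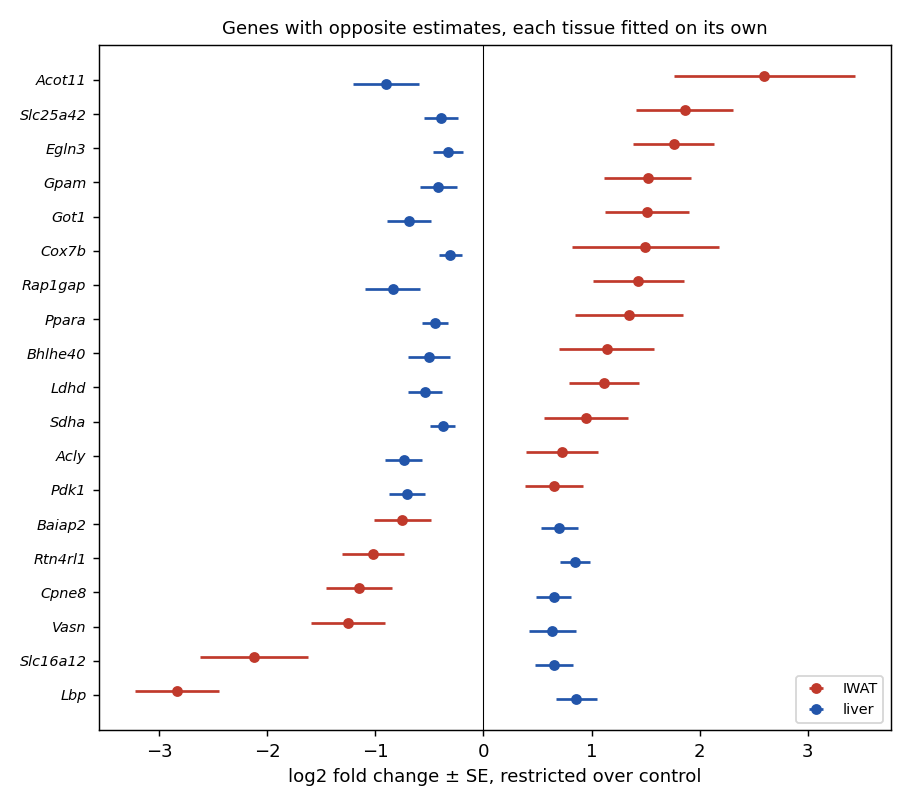
Log2 fold change of MR over control ± SE in IWAT (red) and in liver (blue), each tissue fitted on its own, for 19 of the 60 genes with opposite estimates and an unadjusted p under 0.05 in both. From Pdk1 upward the IWAT estimates lie right of 0 and the liver estimates left of it, while for the 6 genes from Baiap2 down to Lbp the sides are exchanged; bars are wider in IWAT.

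The 3 IWAT libraries that stand apart and the lymphocyte-rich library bear on these counts. Without the 3 libraries, 241 genes (1.84%) had a positive and 115 (0.876%) a negative term, and 5 genes passed all 3 tests of opposite movement. These were Orm3, Trim2 and the predicted 1700037H04Rik with IWAT higher, and Rtn4rl1 and Enho with IWAT lower. Enho encodes the secreted peptide adropin, and Trim2 a ubiquitin ligase. Without the IWAT library of control mouse CON3107 as well, 141 (1.06%) had a positive and 307 (2.31%) a negative term, with 1 and 11 genes in opposite directions. The 11 included Rtn4rl1 and Enho again, with Gstm1, Ggh and Cyp4a14. Aldh1l2 was also among the 11, though it did not pass all 3 tests when only the 3 libraries were left out. Like Aldh1l2, Cyp4a14 did not count as measured in both tissues. Over all IWAT libraries it had 0 to 4 tags (median 0.309 CPM) in MR mice and 0 to 60 (median 0.273 CPM) in control mice. All 21 genes remained called in both settings, while Enho had a term adjusted p of 0.204 and Trim2 of 0.0653 with all 24 libraries. Leaving out the 4 libraries did not even out lymphocyte markers between the diets. In the IWAT libraries left, they summed to 683 to 873 CPM in control mice and 393 to 4303 CPM in MR mice. Their term median was then 4.31, and 6 of 18 tested markers had a positive term by edgeR.

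Lists of genes had unlike medians in the tissues. They were described by counts and by the median log2 fold change of members measured in both tissues. The medians over all 8965 genes were -0.08 for the term, -0.07 in IWAT and 0.01 in liver. The counts are to be read beside the shares of all genes. For the term, 8.39% had an unadjusted p under 0.05, in either direction. In IWAT fitted on its own, 3.68% were higher and 4.6% lower at that level. In liver fitted on its own, 6.38% were higher and 7.2% lower at that level. After adjustment, 0.888% rose and 0.986% fell in liver. De novo lipogenesis, 26 genes of which 23 were measured in both tissues, had medians of 0.66 in IWAT and -0.37 in liver and 1.15 for the term. The sign of each of these medians was the same with upper-quartile, RLE and within-tissue TMM factors. Of its 26 genes edgeR called 1 for the term, Acsl5, while DESeq2 called 3 positive and 0 negative. At an unadjusted p under 0.05 by edgeR, the term was positive in 7 and negative in 1. IWAT was above and liver below 0 in 15 of the 23, against 1766 of all 8965 measured genes. In liver fitted on its own, 7 members fell and 0 rose by edgeR at an adjusted p of 0.05, with 11 and 1 at an unadjusted p under 0.05. Scd1, stearoyl-CoA desaturase, was among them, with 426 to 2918 CPM (median 1527) in liver of MR mice against 3771 to 8125 CPM (median 6596) in liver of control mice, without overlap. In IWAT Scd1 was far higher and overlapped, 20262 to 40407 CPM (median 27920) in MR mice and 16218 to 65920 CPM (median 34128) in control mice. Its term of 1.53 ± 0.56 did not pass (adjusted p = 0.34). Thrsp, Acss2, Acacb and Elovl5 fell in liver too, by 1.79, 0.93, 1.17 and 0.98 on the log2 scale in the fit of liver alone, and their terms did not pass. Without the 3 libraries that stand apart, 5 lipogenic genes had a positive term (Acsl5, Acacb, Thrsp, Elovl5 and Acly), and the term median of the list was 1.08. Without CON3107 as well, the term median was 0.68 and the IWAT median 0.31.

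Oxidative genes had medians above 0 in IWAT and near 0 in liver. For fatty acid oxidation the median was 1.24 in IWAT, 0.12 in liver and 1.04 for the term. The term was above 0 in 20 of 24 measured members, against 3873 of all 8965 measured genes. For the tricarboxylic acid cycle it was 1.07 in IWAT, -0.04 in liver and 1.15 for the term. The subunits of oxidative phosphorylation had a median of 0.87 in IWAT, -0.10 in liver and 1.00 for the term. The thermogenic list had a median of 1.83 in IWAT, -0.01 in liver and 1.71 for the term. In these 4 lists edgeR called 1 member for the term, Gyk in the thermogenic list. At an unadjusted p under 0.05 the term was positive in 8 and negative in 1 of 28 tested members of fatty acid oxidation. It was positive in 8 of 19 of the tricarboxylic acid cycle and in 13 of 24 thermogenic genes. For oxidative phosphorylation it was positive in 18 and negative in 1 of 45. Over all genes tested, 8.39% had such a p in either direction. Slc25a20 belongs to both the fatty acid oxidation and the thermogenic list and is counted in each. DESeq2, which gave 127 positive calls in all, called 3 positive and 1 negative in fatty acid oxidation, 3 positive in the tricarboxylic acid cycle, 5 in oxidative phosphorylation and 8 in the thermogenic list. In IWAT fitted on its own, no member of the 4 lists passed adjustment. There the unadjusted p was under 0.05 with a higher level for 13 members of fatty acid oxidation and 8 of the tricarboxylic acid cycle. The same held for 18 of oxidative phosphorylation and 17 thermogenic genes, against 3.68% of all genes. Single members included Slc25a20, the carnitine carrier, at 1.64 in IWAT and -0.02 in liver (term adjusted p = 0.061), and Acadvl, very-long-chain acyl-CoA dehydrogenase, at 1.85 in IWAT and 0.06 in liver (term adjusted p = 0.127). Without the 3 libraries, a positive term was called for 7 members of fatty acid oxidation and 6 of the tricarboxylic acid cycle. It was called for 7 of oxidative phosphorylation and 7 of the thermogenic list. A negative term was called for 1 of fatty acid oxidation and 1 of oxidative phosphorylation. Over all genes in that fit, 1.84% had a positive and 0.876% a negative term. Without CON3107 as well, the term median was 0.61 for fatty acid oxidation and 0.77 for the tricarboxylic acid cycle.

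Ucp1, the uncoupling protein of thermogenic fat, was at 831 to 1956 CPM (median 1245) in IWAT of MR mice against 19.6 to 456 CPM (median 86.0) in IWAT of control mice, without overlap. Liver held 0 to 2 Ucp1 tags per library in MR mice and 0 to 13 in control mice, so the term, with an adjusted p of 0.0763, rested on counts near 0 in liver. Brown adipocyte markers, 9 genes with Ucp1 among them, summed to 1636 to 3437 CPM in IWAT of MR mice and 157 to 1019 CPM in IWAT of control mice, with Zic1 at 0 in MR mice. Their part in the oxidative lists was not tested.

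Of the integrated stress response, 9 members rose in liver fitted on its own, and a negative term was called for 3 of them. Its measured members had medians of 0.31 in IWAT, 0.51 in liver and -0.17 for the term, the last being 0.14 without the 3 libraries that stand apart and -0.05 without CON3107 as well. Of 29 tested members, 3 had a negative term (Aldh1l2, Psat1 and Asns) and 0 a positive one by edgeR, with 8 negative and 0 positive at an unadjusted p under 0.05. Pck2 and Nupr1 were called negative as well without the 3 libraries. In liver fitted on its own, 9 rose and 0 fell after adjustment, and 19 were higher and 0 lower at an unadjusted p under 0.05, while in IWAT fitted on its own 1 was higher and 2 lower at that level. Fgf21, a hormone secreted by liver in amino acid shortage, had 12.4 to 28.0 CPM (median 24.1) in liver of MR mice against 3.19 to 15.5 CPM (median 4.42) in liver of control mice, with an own-fit effect of 1.76 ± 0.35 (adjusted p = 0.0150). In IWAT it had at most 17 tags in any MR library and 8 in any control library, and the term did not pass (adjusted p = 0.943). Pck2 and Slc7a5 also rose in liver, by 1.19 and 1.36 on the log2 scale, without passing for the term (adjusted p = 0.269 and 0.965).

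Glutathione genes and targets of the antioxidant factor NRF2 had medians of -0.13 in IWAT, 0.27 in liver and -0.45 for the term. None of 30 tested members was called for the term by edgeR, against 2 negative calls by DESeq2, and at an unadjusted p under 0.05 the term was positive for 1 and negative for 6. Without the 3 libraries, 1 positive and 3 negative terms were called, and 1 and 6 without CON3107 as well. In liver fitted on its own, 8 rose and 1 fell. Gstm1, a glutathione transferase with near-identical family copies and therefore uncertain, had 1290 to 1857 CPM (median 1648) in liver of MR mice against 782 to 987 CPM (median 893) in liver of control mice, without overlap. In IWAT its range was 3.12 to 172 CPM (median 149) in MR mice and 18.5 to 323 CPM (median 178) in control mice. The lowest IWAT value in MR mice came from mouse MR3116, and the term had an adjusted p of 0.775 with all libraries and 0.00787 without the 3 that stand apart. Ephx1, an epoxide hydrolase, rose in liver at 1.06 ± 0.15 and was at -0.17 ± 0.23 in IWAT, each fitted on its own. Its term in the joint fit had an adjusted p of 0.0656.

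The methionine cycle and transsulfuration list, 29 tested genes of which 26 were measured in both tissues, had medians of -0.19 in IWAT, -0.01 in liver and -0.21 for the term. No member was called for the term by edgeR, while DESeq2 called 1, and 3 had an unadjusted p under 0.05. In the fit without the 3 libraries, edgeR called Csad and Gamt with a negative and Got1 with a positive term. In liver fitted on its own, 1 rose and 1 fell after adjustment, and 2 were higher and 7 lower at an unadjusted p under 0.05. The one that rose was Csad, cysteine sulfinic acid decarboxylase of taurine synthesis, at 2.58 ± 0.18 in liver and 0.67 ± 0.97 in IWAT, each fitted on its own. Its term had an adjusted p of 0.616, and of 0.00327 without the 3 IWAT libraries that stand apart.

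Extracellular matrix genes had medians of -1.09 in IWAT, -0.21 in liver and -0.90 for the term. No member was called for the term by edgeR or DESeq2. At an unadjusted p under 0.05, 15 of 38 had a negative and 0 a positive term. Over all genes tested, 8.39% had such a p in either direction. By edgeR there were 2 negative calls without the 3 libraries that stand apart, Col18a1 and Lamc1, and 6 without CON3107 as well, with Lum, Col5a1, Nid1 and Sparc added. In the joint fit 13 of 38 fell in IWAT, against 1.97% of all genes tested. In IWAT fitted on its own 0 passed adjustment. There 20 were lower at an unadjusted p under 0.05, against 4.6% of all genes. Col3a1, a fibrillar collagen, was at -2.03 in IWAT and -0.46 in liver (term adjusted p = 0.194), and Nid1, of basement membrane, at -1.32 in IWAT and -0.03 in liver (term adjusted p = 0.164). Of the 30 members measured in both tissues, 4 had IWAT below and liver above 0, against 2467 of all 8965 measured genes. The other way round it was 0 members, against 1766 of the 8965. Lists for insulin signalling, cytosolic ribosomal proteins and the unfolded protein response had no member called for the term by edgeR or DESeq2 with all 24 libraries. Without the 3 libraries, and without CON3107 as well, edgeR called a negative term for Grb14 of insulin signalling and Hspa1b of the unfolded protein response, and for no ribosomal protein gene. At an unadjusted p under 0.05 the term was negative for 1 gene of insulin signalling and 2 of the unfolded protein response, and positive for 1 ribosomal protein gene.

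**Figure D4:**
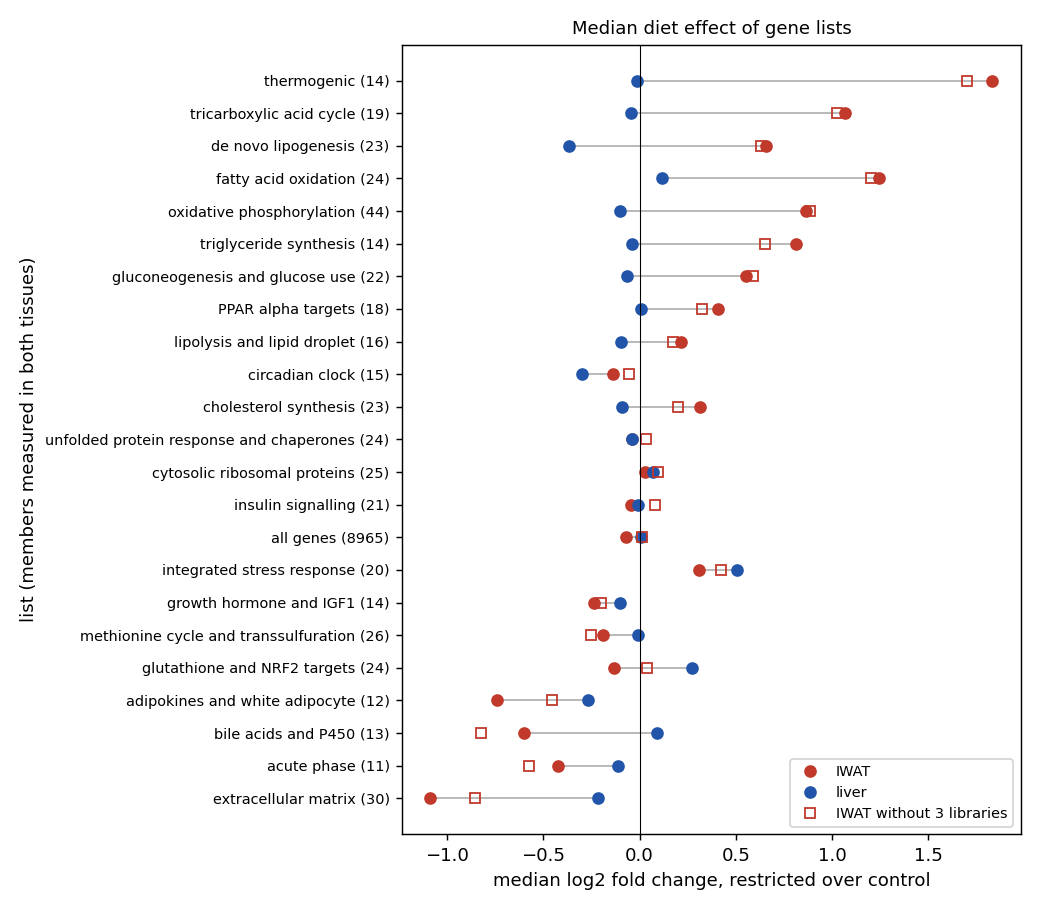
Median log2 fold change of MR over control per gene list in IWAT (red) and liver (blue), with IWAT without the 3 libraries that stand apart as open squares; the number of members measured in both tissues is in brackets. Oxidative and thermogenic lists lie right of 0 in IWAT and near 0 in liver, de novo lipogenesis lies on opposite sides, and extracellular matrix lies left of 0 in both.

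Fasn, Igf1, Lpl and Lep, chosen by name, had no term that passed by edgeR. Fasn, fatty acid synthase, was at 0.85 ± 0.54 in IWAT and -0.57 ± 0.54 in liver (term adjusted p = 0.669). Igf1, the growth factor, was at -0.98 ± 0.27 in IWAT and -0.59 ± 0.26 in liver, both below 0 (term adjusted p = 0.951). Lpl, lipoprotein lipase, was at -0.92 ± 0.41 in IWAT and -0.01 ± 0.41 in liver (term adjusted p = 0.772). Lep, leptin, had 0.832 to 79.7 CPM (median 59.6) in IWAT of MR mice against 9.65 to 851 CPM (median 295) in IWAT of control mice, with overlap, and its IWAT effect of -2.79 ± 0.88 did not pass (adjusted p = 0.0826). It had at most 3 tags in any liver library of MR mice and 6 in any of control mice, so no liver fold is given. Markers of skeletal muscle, 15 genes, had a term median of -2.82 over the 13 measured in both tissues, with 0 called by edgeR or DESeq2 and 0 at an unadjusted p under 0.05. They summed to 212 to 1190 CPM in IWAT of MR mice and 181 to 4185 CPM in IWAT of control mice, and to 43.2 to 2171 CPM in liver of MR mice and 35.4 to 1266 CPM in liver of control mice.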

How the data were processed

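Tag libraries (SOLiD SAGE) took 7 to 12 ng of RNA each, and tags with a unique match among mouse RefSeq genes were kept, per the labels' protocols. The deposited tables held whole-number counts per gene symbol without normalization, made by the authors. The submitters' processing notes name mm10, GRCm38.p1 and DESeq; for the aligner, "not given in the sources used here" applies. DESeq-normalized tables were not used. IWAT and liver counts were joined by symbol (26608 in both). Genes passing filterByExpr (minimum count 10; 12308 genes with 99.42 to 99.92% of counts) were fitted with edgeR 4.0.16 in R 4.3.3 (TMM factors, quasi-likelihood F test, 4 group means, Benjamini-Hochberg adjustment, threshold 0.05). CPM of single genes used TMM-scaled totals, and their log values added a prior count of 2. Marker sums and the limit for a count of 0 used library totals without TMM factors. SE is the absolute log2 fold change over the square root of F. Alternatives used limma 3.58.1 and DESeq2 1.42.0, other factors and filters, all 47 libraries, a replicate block, and fewer libraries.

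The replicate number is the animal, since the labels give the same numbers in both tissues. Deviations from the group mean correlated by 0.0725 on average (-0.13 to 0.243) between the tissues of an animal, against -0.0135 between animals of the same diet. Named genes were, among those measured in both tissues, the 6 with the smallest p in each direction where so many passed, called list members, and 9 chosen by name; genes outside this rule were chosen after their values were seen. Members and lists were chosen with earlier results of these data known. Gene positions and promoters come from RefSeq on GRCm38.p6.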

Additional observations from a re-analysis of the deposited data

Results flagged for a closer look

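The tissue-by-diet term passed for 19 named genes. Its log2 value was 2.72 for Acsl5, 2.97 for Gyk, 1.46 for Ppif, 2.03 for Egln3, 4.54 for Orm3 and 4.83 for Fam131c. It was -3.77 for Lbp, -5.64 for Aldh1l2, -3.72 for Psat1, -1.94 for Rtn4rl1, -2.51 for Cyp39a1, -3.10 for Rad51l1, -2.85 for Slc16a12, -1.87 for Cpne8, -3.11 for Asns, -1.62 for Htatip2, -2.22 for Endou, -1.53 for Baiap2 and -2.34 for Cdkn2b.

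Single libraries lay far from the rest of their group, by Dixon's test at the 95% level, in 12 of 122 sets of 6 libraries, where chance gives about 1 in 20. Mouse MR3116 was the lowest IWAT library of MR mice for Fasn (log2 CPM of 10.27, others 13.38 to 14.01), Lep (0.11, others 4.87 to 6.32), Igf1 (5.46, others 6.26 to 6.71), Gstm1 (1.75, others 6.72 to 7.42) and the sum of erythroid markers (6.12, others 6.87 to 7.17). Mouse CON3107 had the highest IWAT sums among control mice for lymphocyte markers (13.17, others 9.42 to 10.79) and macrophage markers (11.57, others 8.91 to 9.78), and the lowest Endou (2.37, others 3.05 to 3.43). Mouse MR3113 had the highest hepatocyte marker sum in IWAT of MR mice (14.05, others 10.74 to 11.97) and the highest Rad51l1 in liver of MR mice (3.21, others 1.60 to 2.12). In liver of control mice, CON3114 had the highest sum of skeletal muscle markers (10.31, others 5.18 to 7.05), and CON3106 the lowest Slc16a12 (3.11, others 4.10 to 4.51).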

How the results depend on the processing

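The counts of genes called for the term, 6 positive and 15 negative, varied with the settings, and the cause was not tested where none is named. Positive and negative calls were 13 and 6 with limma voom weights per tissue, 24 and 21 with limma voom, 101 and 80 with each tissue fitted on its own, and 127 and 82 with DESeq2. With the tissues fitted apart, the term was the difference of the estimates over their combined SE. Its p came from a normal distribution and not from the quasi-likelihood test. Other factors gave 20 and 15 (upper quartile), 13 and 15 (RLE) and 18 and 18 (TMM within each tissue). No filter gave 4 and 10, a filter of 20 counts in both tissues 11 and 14, and 1 fit of all 47 libraries 54 and 26. Calls were 241 and 115 without the 3 IWAT libraries that stand apart, 15 and 51 without IWAT of CON3107, and 141 and 307 without these 4 libraries. With the animal as a replicate block, 1 positive (Orm3) and 1 negative (Lbp) call were left, and diet effects within a tissue cannot be estimated in that fit. Genes with IWAT higher and liver lower, 0 as reported, numbered 2 with DESeq2, 1 with limma voom, 1 with 47 libraries, 3 without the 3 libraries and 1 without the 4. Genes with IWAT lower and liver higher, 1 as reported, numbered 2 with DESeq2, 0 with the filter of 20 counts, which removes Aldh1l2, 2 without the 3 libraries, 2 without CON3107 and 11 without the 4. Where that count was 1 in other settings the gene was Aldh1l2, except Lbp with weights per tissue and with the tissues fitted apart. Leaving out 1 library at a time gave 4 to 61 positive and 8 to 51 negative terms, and 0 to 1 and 0 to 2 genes in opposite directions. Calls in both directions together numbered 106 without IWAT of CON3114, 85 without IWAT of MR3116, 66 without IWAT of CON3107, 47 without IWAT of CON3106, and 13 without IWAT of MR3113, liver of MR3113 or liver of CON3106. All 21 called genes kept their sign in every setting in which they were tested. Among the other named genes, the term of Lep, with few liver tags, ran from -2.498 to 0.86 as 1 library was left out, and reversed to 0.86 without liver of MR3101. Limits: IWAT varied more than liver but shared a dispersion with it in the joint fit, 7 of the 21 genes had too few tags in 1 tissue to count as measured in both, and 6 libraries per group limit the precision.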
